A study of Homo sapiens with 6 samples.

Results

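The genes described here are 7 antiviral and interferon-related genes: the antiviral RNA-binding protein gene ZC3HAV1, the RNA sensor gene IFIH1, the interferon-induced effector genes BST2, ISG15 and IFI6, and the transcription factor genes IRF9 and IRF1. They are 7 of 12165 genes measured and are read by 9 of 22215 probe sets, taking every probe set annotated to one of them alone. The study exposed LNCaP, an androgen-responsive human prostate cancer cell line, for 6 h to 20 µM gedunin, a limonoid natural product, or to its solvent DMSO. The groups are 3 gedunin arrays and 3 DMSO arrays, numbered as biological replicates in the labels, with medium containing fetal bovine serum in both. The genes were chosen by their measured values in the contrast of gedunin with DMSO and on the array labelled DMSO 3, so their differences are given as a description and without a test.

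Cells sense viral RNA in the cytosol through receptors such as the IFIH1 protein (MDA5), which signal through the adaptor MAVS to switch on interferon genes. Secreted interferons bind cell surface receptors, whose JAK kinases activate STAT proteins. IRF9 joins STAT proteins in the complex ISGF3, which binds interferon-stimulated response elements in promoters, whereas gamma-activated sequences, as in the promoter of IRF1, respond to interferon-gamma. Genes switched on in this way act against viruses at several steps, from viral RNA decay to the release of particles. LNCaP cells are known for a poor response to interferon.

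The array labelled DMSO 3 lacked the LNCaP profile. Of 9 luminal prostate markers, 8 lay at least 4-fold below every other array, and KLK3, which encodes prostate-specific antigen, read 24.5 there against 1702 to 2093 on the other 5 arrays. Of 16 leukocyte markers, 13 exceeded each of the others at least 4-fold, with CD74, an invariant chain of class II molecules, at 4294 against 19.1 to 20.8. The comparison of gedunin with DMSO therefore uses DMSO 1 and 2, and the array labelled DMSO 3 is shown apart. Array medians lay between 31.1 and 32.0, and intensities below them are called dim here. With so few arrays, precision is limited by their number.

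The promoters of the 7 genes are shown because interferon-activated factors are known to act through elements of this kind. In the 250 bases before the annotated start (RefSeq, GRCh38.p14), the core of the interferon-stimulated response element was searched as 2 copies of GAAA with 2 free bases between them, on both strands. It was found in 4 of the 7 genes, IFIH1, BST2, ISG15 and IFI6, and in 3.02% of 35116 promoter windows of the same length. The gamma-activated sequence TTCNNNGAA, which reads the same on both strands, was found in 4 of 7, ZC3HAV1, BST2, IRF9 and IRF1, and in 6.57% of all windows. Each stretch is printed 5′ to 3′ on the gene's strand, with 20 bases before and after the matches where the window allows. Capitals mark the response element core in the first 4 genes and the gamma-activated sequence in the last 3.
ISG15 (chr1:1013364-1013419, plus strand): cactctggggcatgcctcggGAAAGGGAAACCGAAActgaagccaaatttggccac
IFI6 (chr1:27672256-27672368, minus strand): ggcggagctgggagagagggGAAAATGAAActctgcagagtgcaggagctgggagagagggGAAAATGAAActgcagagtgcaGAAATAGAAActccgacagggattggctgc
BST2 (chr19:17405725-17405780, minus strand): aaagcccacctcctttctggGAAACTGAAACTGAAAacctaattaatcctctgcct
IFIH1 (chr2:162318685-162318863, minus strand): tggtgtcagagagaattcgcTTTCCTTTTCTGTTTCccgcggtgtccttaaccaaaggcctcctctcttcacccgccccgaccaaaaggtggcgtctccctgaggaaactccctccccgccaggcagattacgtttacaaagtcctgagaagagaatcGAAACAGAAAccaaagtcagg
ZC3HAV1 (chr7:139109796-139109844, minus strand): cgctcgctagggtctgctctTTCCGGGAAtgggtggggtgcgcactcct
IRF9 (chr14:24161182-24161230, plus strand): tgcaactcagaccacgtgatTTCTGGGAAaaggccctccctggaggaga
IRF1 (chr5:132490869-132490917, minus strand): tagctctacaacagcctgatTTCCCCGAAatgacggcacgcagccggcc

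ISG15 and BST2 each held 2 response element cores that overlap by 4 bases, so that a run of 3 GAAA repeats appears. IFI6 held 3 separate cores, 2 of which lie in a repeated stretch. IFIH1 held 3, of which 2 overlap on the opposite strand and 1 begins 21 bases before the start. In BST2, 1 of its 2 gamma-activated sequences overlaps the first core and is not marked separately. A match describes the letters in this window and does not show that a factor is bound there.

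Of the 7 genes, ZC3HAV1 differed most between gedunin and DMSO, and on 1 of its 2 probe sets only. The others stood at most 1.32-fold from DMSO 1 and 2 in either direction. ISG15, IFI6 and IRF9 were lower with gedunin, BST2 and IFIH1 were higher at low intensities, and the groups overlapped for IRF1. Over the 9 probe sets, all gedunin arrays lay above DMSO 1 and 2 for 3 and below them for 4. Among all probe sets the same was seen for 19.3% above and 23.5% below, and the members were chosen on this contrast, so nothing is read from their count.

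**Figure D1:**
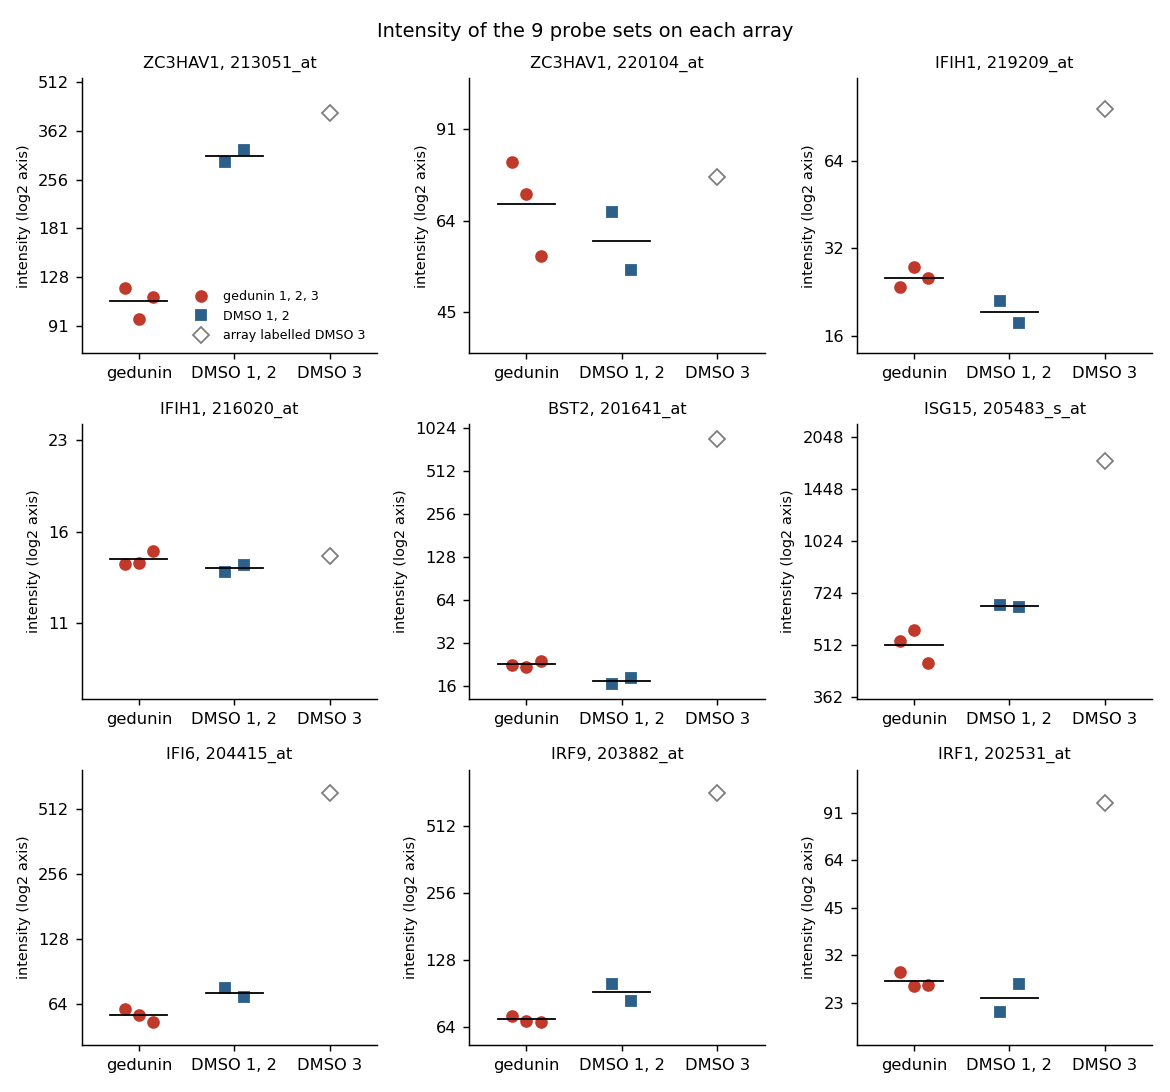
RMA intensity (log2 axis, scaled separately in each panel) of the 9 probe sets on each array; circles are gedunin 1 to 3, squares DMSO 1 and 2, open diamonds the array labelled DMSO 3, and bars the group means of log2 values. On probe set 213051_at of ZC3HAV1 the gedunin arrays read 94.8 to 119 and DMSO 1 and 2 read 290 and 317.

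ZC3HAV1 encodes the zinc finger antiviral protein, also named PARP13, which binds CpG-rich viral RNA and directs its decay. Its probe set 213051_at read 119, 94.8 and 111 on the gedunin arrays, against 290 and 317 on DMSO 1 and 2. All gedunin arrays were far below both DMSO arrays, with a gap of 1.29 on the log2 scale between the nearest values. The mean log2 difference, gedunin minus DMSO, was -1.49 ± 0.11 (moderated SE, n = 3 and 2 arrays), which puts DMSO 1 and 2 at 2.82 times the gedunin level.

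The other probe set of ZC3HAV1, 220104_at, did not show this. It read 79.9, 70.6 and 55.9 with gedunin, against 66.1 and 53.1 on DMSO 1 and 2. The groups overlapped, and the mean log2 difference was 0.20 ± 0.15. The mean of both probe sets gave a difference of -0.65 on the log2 scale for the gene. The gene is known to make long and short protein isoforms with different ends, and which transcripts each probe set reads is not given in the sources used here.

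IFIH1 encodes MDA5, the sensor of long double-stranded RNA. Its brighter probe set 219209_at read 23.5, 27.6 and 25.3 with gedunin, against 21.2 and 17.8 on DMSO 1 and 2. The gedunin arrays were higher and did not overlap DMSO, with a log2 difference of 0.39 ± 0.11. All 5 values lay below their array's median, at a rank that 38.7% to 46.2% of probe sets fell below with gedunin and 31.9% and 16.9% on DMSO 1 and 2. The second probe set, 216020_at, read 14.2, 14.2 and 14.9 with gedunin and 13.7 and 14.1 on DMSO 1 and 2. It is among the dimmest on every array, 14.6 on the one labelled DMSO 3 included, and its difference was 0.049 ± 0.085.

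BST2 encodes tetherin, a membrane protein that holds budding virus particles on the cell surface. It read 22.2, 21.7 and 23.8 with gedunin, against 16.4 and 18.1 on DMSO 1 and 2. The gedunin arrays lay above both DMSO arrays by 0.39 ± 0.09 on the log2 scale, a 1.31-fold difference. These intensities lie in the lower part of each array, where RMA compresses differences and the table holds no detection call.

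ISG15 encodes a ubiquitin-like protein that is joined to other proteins after interferon exposure. It read 526, 564 and 454 with gedunin, against 666 and 659 on DMSO 1 and 2, at a rank above 89.1% or more of the probe sets on every array. The 3 gedunin arrays were lower without overlap, and the log2 difference was -0.37 ± 0.11, a level 22.7% lower on average.

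IFI6 encodes a small membrane protein of mitochondria and endoplasmic reticulum that limits viral replication and cell death. It read 60.8, 56.7 and 52.6 with gedunin, against 75.8 and 68.8 on DMSO 1 and 2. Again the gedunin arrays were lower without overlap, with a difference of -0.35 ± 0.10 on the log2 scale. A further 5 probe sets name IFI6 among several genes, immunoglobulin genes among them, and were not used.

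IRF9 is the DNA-binding subunit of ISGF3. It read 71.7, 68.0 and 67.6 with gedunin, against 99.5 and 83.9 on DMSO 1 and 2. The gedunin arrays were close together and below both DMSO arrays, which differed more from each other, and the log2 difference was -0.40 ± 0.10. IRF1, a transcription factor that acts on antigen presentation and other interferon-gamma target genes, read 28.4, 25.7 and 25.8 with gedunin, against 21.3 and 26.0 on DMSO 1 and 2. The groups overlapped and the log2 difference was 0.18 ± 0.11, at intensities below the array median.

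**Figure D2:**
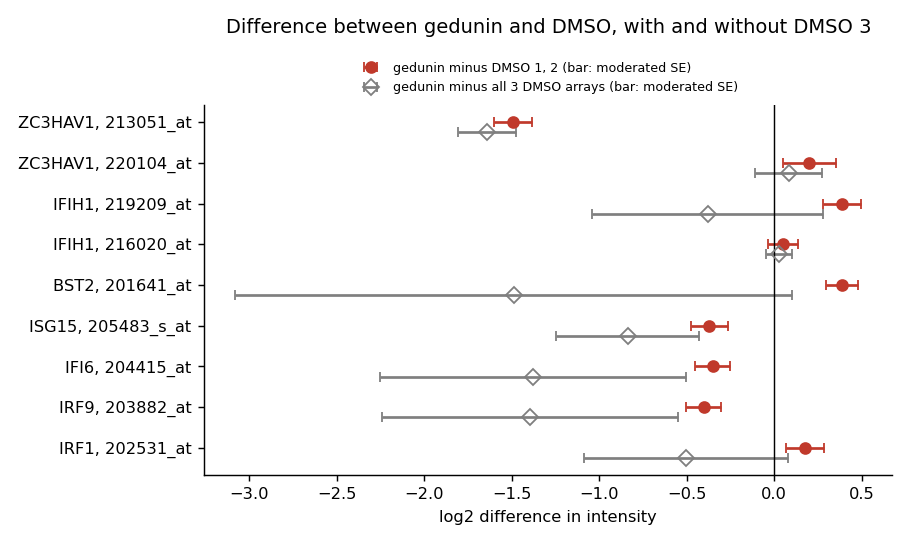
Log2 difference in intensity between gedunin and DMSO for each of the 9 probe sets (horizontal axis; bars are moderated standard errors), with DMSO 1 and 2 (filled circles) and with all 3 DMSO arrays (open diamonds). Probe set 213051_at of ZC3HAV1 stands at -1.49 and -1.64, while BST2 stands at 0.39 and -1.49.

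Adding the array labelled DMSO 3 to the control group turned the sign of the difference for BST2, IFIH1 and IRF1. The difference became -1.49 ± 1.59 for BST2, -0.38 ± 0.66 for IFIH1 (219209_at) and -0.50 ± 0.59 for IRF1. It also became larger and less precise for IFI6 (-1.38 ± 0.87), IRF9 (-1.40 ± 0.84) and ISG15 (-0.84 ± 0.41). ZC3HAV1 on probe set 213051_at changed little, with -1.64 ± 0.17. Centring each array on GAPDH and ACTB lowered every difference by 0.17 on the log2 scale and put the median of all genes at -0.19. With it the difference of the dim IFIH1 probe set 216020_at turned to -0.12, that of IRF1 came to 0.0069, and the gedunin arrays lay wholly above DMSO for 1 probe set, that of BST2.

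Defining leukocyte markers were dim on the 5 arrays compared. The class II gene HLA-DRA read 17.3 to 19.8 and PTPRC, the leukocyte common antigen, 23.3 to 24.5. The 16 leukocyte markers summed to intensities of 899 to 994 on gedunin arrays and of 1085 and 1100 on DMSO 1 and 2. Of the 16, 0 were called by limma (2 at an unadjusted p of 0.05). LCP1, an actin-bundling protein, made up most of the sum, at 564 to 655 on gedunin arrays and 748 and 735 on DMSO 1 and 2. The other 15 summed to 334 to 340 on gedunin arrays, against 352 and 350 on DMSO 1 and 2. The part of these small differences in the values of ISG15, IFI6 and IRF9 was not tested. The labels of these arrays name only LNCaP cells and give no count of cells by type.

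Few other genes of the pathways were called with gedunin. Of 178 further genes in 8 lists by role, 143 were measured, and 74 of these had a mean above the array median. At an adjusted p of 0.05, 6 of the 143 rose and 9 fell (limma over all probe sets, gedunin against DMSO 1 and 2). These are 4.2% and 6.29% of the genes listed, against 8.24% and 9.36% of all genes measured, with no matching for intensity. The median log2 difference was -0.032, beside -0.017 over all genes. Without DMSO 1 the counts were 3 higher and 4 lower, and without DMSO 2 they were 3 and 5. With all 6 arrays limma called 0 of the 143 (8 at an unadjusted p of 0.05), against 1.31% of all genes higher and 0.362% lower.

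**Figure D3:**
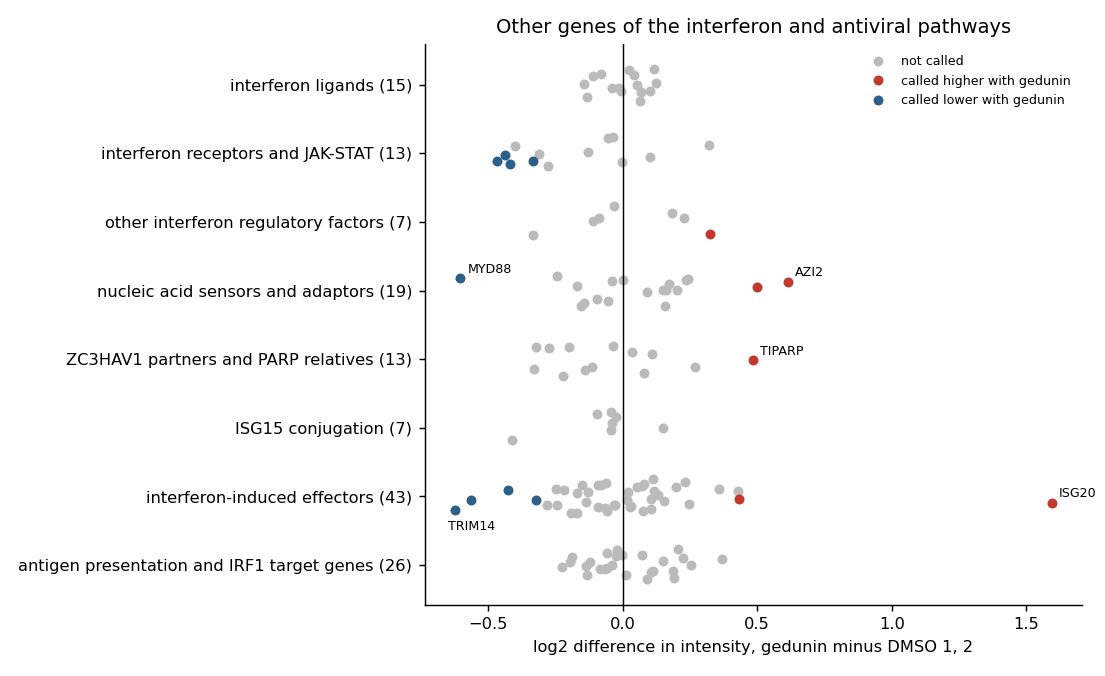
Log2 difference in intensity, gedunin minus DMSO 1 and 2, for the 143 other pathway genes by list (number measured in brackets; vertical scatter within a list has no meaning); red genes were called higher and blue genes lower by limma, and grey genes were not called. ISG20 lies apart at 1.60. The receptor and JAK-STAT list has 4 called genes of 13, all lower, while 9.36% of all genes were called lower.

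Among interferon ligands, 0 of 15 measured genes were called (0 at an unadjusted p of 0.05), and 0 of 15 had a mean above the array median. In the list of receptors and JAK-STAT signalling genes, 4 of 13 fell (30.8%) and 0 rose, with a median of -0.28. Among all genes 9.36% fell and 8.24% rose, and each of the 4 calls was lost when some array was left out. IFNGR2, a chain of the interferon-gamma receptor, read 166, 160 and 159 with gedunin, against 225 and 209 on DMSO 1 and 2 (log2 difference -0.42 ± 0.09, limma adjusted p = 0.00920). It had -0.37 and was not called without DMSO 1. PTPN6, a phosphatase that restrains cytokine signalling, fell by 0.47 on the log2 scale (adjusted p = 0.00777), and had -0.40 and no call without DMSO 2. The kinase gene JAK2 fell by 0.33 (adjusted p = 0.0266) on its brightest probe set. The mean of its 2 probe sets was -0.14 and was not called, and the call was also lost without gedunin 1, gedunin 2, DMSO 1 or DMSO 2. IFNAR1, a chain of the type I receptor, fell by 0.44 (adjusted p = 0.0408) at intensities of 18.7 to 19.8 with gedunin and 22.3 and 30.2 on DMSO 1 and 2, below the array median. Without DMSO 2, IFNAR1 had -0.22 and was not called, and without gedunin 1, 2 or 3 it was not called either. STAT2 was not analysed here.

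Of the other interferon regulatory factors, 1 of 7 rose, IRF2, a repressor that competes with IRF1 (0.32 ± 0.09, limma adjusted p = 0.0434). It had -0.35 with all 6 arrays and 0.15 after centring on GAPDH and ACTB, neither called. Its call was lost when any 1 of the 5 arrays was left out, with values of 0.26 to 0.39. Among sensors and adaptors, 2 of 19 rose and 1 fell. MYD88, the adaptor of most Toll-like receptors, read 290, 290 and 270 with gedunin, against 434 and 428 on DMSO 1 and 2 (-0.60 ± 0.09, adjusted p = 0.00115). TBK1, the kinase that activates IRF3, rose by 0.50 ± 0.10 (adjusted p = 0.00718) and AZI2, an adaptor of that kinase, by 0.61 ± 0.11 (adjusted p = 0.00487). TBK1 was not called without DMSO 1 (0.48) or DMSO 2 (0.52), nor AZI2 without DMSO 2 (0.47). RIGI, the sensor of RNA with a triphosphate end, had -0.24 ± 0.09 and was not called (limma adjusted p = 0.0911). It was called lower after centring on GAPDH and ACTB (-0.41) and in the fit on gene means (-0.24). RIGI read 21.7 to 22.9 with gedunin and 26.0 and 26.8 on DMSO 1 and 2, below the array median.

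Of 13 partners of ZC3HAV1 and relatives in the PARP family, 1 rose. It was TIPARP, an ADP-ribosyltransferase induced by the aryl hydrocarbon receptor, which read 101, 97.6 and 95.3 with gedunin, against 71.5 and 68.4 on DMSO 1 and 2 (0.48 ± 0.09, limma adjusted p = 0.00395). TRIM25 and KHNYN, cofactors of the ZC3HAV1 protein, had -0.14 ± 0.11 (adjusted p = 0.491) and 0.078 ± 0.11 (adjusted p = 0.713), chosen for mention after their values were seen. Of 7 genes that join ISG15 to other proteins or remove it, 0 were called (limma, 1 at an unadjusted p of 0.05), with a median of -0.042.

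Of 43 interferon-induced effectors, 2 rose and 4 fell, with a median of -0.031. ISG20, a 3′ to 5′ exonuclease that degrades viral RNA, read 156, 210 and 178 with gedunin, against 62.6 and 56.7 on DMSO 1 and 2. All gedunin arrays were well above DMSO, with a log2 difference of 1.60 ± 0.12 (limma adjusted p = 2.2e-05), and 1 further probe set of the gene was also called higher. TRIM5, a restriction factor against retroviral capsids, rose by 0.43 ± 0.12 (limma adjusted p = 0.0352). TRIM5 did not pass the alternative filter on dim probe sets. Its call was lost without gedunin 1, gedunin 3, DMSO 1 or DMSO 2 (0.34 to 0.50), and after centring on GAPDH and ACTB (0.26).

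The fall was 0.62 ± 0.10 on the log2 scale for TRIM14, an adaptor in RNA and DNA sensing (adjusted p = 0.00245), and 0.57 ± 0.13 for TRIM38, a regulator of innate signalling (adjusted p = 0.0141), each on its brightest probe set. The mean over probe sets was -0.28 for TRIM14 and -0.36 for TRIM38, both called. TRIM38 was not called without DMSO 1 (-0.63) or DMSO 2 (-0.50). The other two that fell were the nucleotide hydrolase gene SAMHD1 (-0.43) and LGALS3BP (-0.32), named after their values were seen. SAMHD1 lost its call without gedunin 1, 2 or 3 or DMSO 1, and LGALS3BP without gedunin 2 or 3, DMSO 1 or DMSO 2. The classical interferon targets MX1, IFIT1 and IFITM3 were not called in the main comparison. MX1 and IFIT1 did not pass the alternative filter on dim probe sets, so their lack of a call says little. Centring on GAPDH and ACTB lowered every difference by 0.17. MX1 was then called lower (-0.34), while IFIT1 (-0.20) and IFITM3 (-0.24) were not called. MX1, a GTPase against RNA viruses, had -0.17 ± 0.09 (adjusted p = 0.270), IFIT1, which binds viral RNA, -0.033 ± 0.10 (adjusted p = 0.883), and IFITM3, which blocks viral entry, -0.066 ± 0.10 (adjusted p = 0.740). Among 26 antigen presentation and IRF1 target genes, limma called 0 (4 at an unadjusted p of 0.05).

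On the array labelled DMSO 3, the brightest probe sets of the 7 genes read above the other arrays to very different degrees. BST2 read 857, which is 36.0 times the highest of the other 5 arrays. IFI6 read 613 and IRF9 719, at 8.08 and 7.23 times the highest of the others. IFIH1 (219209_at) read 96.2 and IRF1 96.8, at 3.48 and 3.41 times, and ISG15 read 1749, at 2.63 times. The dim IFIH1 probe set 216020_at read 14.6, inside the range of the gedunin arrays.

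ZC3HAV1 was closest to the other DMSO arrays, with 413 on probe set 213051_at, 1.30 times the highest of them. On 220104_at it read 75.4, inside the range of the gedunin arrays. Of the 7 genes, 3 exceeded each of the other arrays at least 4-fold, while 3.27% of all genes did so. These values were used in choosing the genes and are given without a test.

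**Figure D4:**
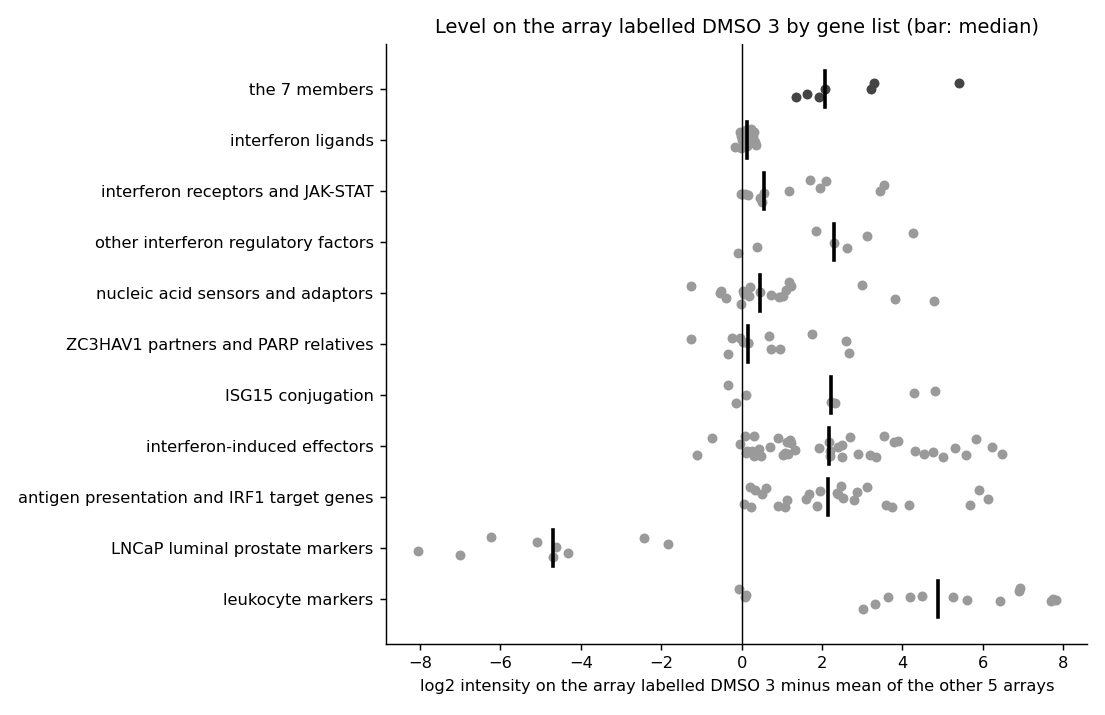
Log2 intensity on the array labelled DMSO 3 minus the mean log2 intensity of the other 5 arrays, for the 7 genes and the genes of each list (1 point per gene; bars are medians; vertical scatter has no meaning). Each gene is shown by its brightest probe set over those 5 arrays. The 7 genes lie between 1.34 (ZC3HAV1) and 5.40 (BST2), leukocyte markers have a median of 4.88 and luminal prostate markers one of -4.69.

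The lists of other interferon genes were counted on that array in the same way, and differences between lists were not tested. Of the 43 interferon-induced effectors, 19 (44.2%) exceeded each of the other arrays at least 4-fold. So did 13 of 26 antigen presentation and IRF1 target genes, 3 of 7 ISG15 conjugation genes and 3 of 7 other interferon regulatory factors. MX1 read 2432 there, against 25.1 to 26.9 with gedunin and 30.6 and 28.2 on DMSO 1 and 2. The count was 0 of 15 for interferon ligands, 2 of 13 for ZC3HAV1 partners and relatives, 2 of 13 for receptors and JAK-STAT genes and 3 of 19 for sensors and adaptors. The effector IFITM3 was lower on that array, at 764, against 1160 to 1383 on gedunin arrays and 1314 and 1294 on DMSO 1 and 2. Leukocyte markers are high on the same array, and their part in these levels was not tested.

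The genes most like ZC3HAV1 on its probe set 213051_at over the 6 arrays were KNOP1, RRS1 and GEMIN4. The probe set 220104_at, which did not show the fall, was not used for this. Likeness was measured by the root mean square difference of log2 values after setting each gene to its mean on DMSO 1 and 2. This difference was 0.21 for KNOP1, 0.22 for RRS1 and 0.23 for GEMIN4. RRS1, a ribosome assembly factor, read 81.6, 87.7 and 85.2 with gedunin, against 218 and 221 on DMSO 1 and 2. On the array labelled DMSO 3 it read 232. KNOP1, a nucleolar protein, had a log2 difference of -1.21 ± 0.12 and GEMIN4, a member of the SMN complex, -1.21 ± 0.09, gedunin minus DMSO 1 and 2. Likeness was sought for members that differed by at least 0.5 on the log2 scale, which ZC3HAV1 alone did.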

How the data were processed

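Per the submitters' processing notes the values come from RMA, with no version given. The authors deposited 1 linear intensity for each of 22215 probe sets on each of 6 arrays; which arrays were processed together is not given in the sources used here. Log2 was taken of the deposited intensity. Probe sets were named by the platform annotation supplied with the table, and 19724 named 1 gene. A gene took its brightest probe set over the 5 arrays compared. Gedunin 1 to 3 were compared with DMSO 1 and 2 by limma (version 3.58.1, R 4.3.3; lmFit, eBayes), with Benjamini-Hochberg adjustment over all probe sets, a threshold of 0.05 and no filter on dim probe sets. Separate cultures are not described beyond the replicate labels, so the p-values reflect only how these arrays vary, which may be technical. The code was tested on simulated data.

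The members and gene lists were chosen with earlier results of these data known. In each list up to 4 called genes with the largest change were named, and STAT2, RIGI, MX1, IFIT1 and IFITM3 were to be named whatever their result; a further gene of this rule is not reported here. The 3 genes most like a member that differed by 0.5 or more were named, among probe sets brighter than the median. Promoters came from RefSeq, and all 7 members matched. Alternatives covered the arrays used, a filter, centring, normalization, a replicate block, array weights, the eBayes settings, the pseudocount, the gene summary, the threshold and the motif.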

Additional observations from a re-analysis of the deposited data

Results flagged for a closer look

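The array labelled DMSO 3 lies outside the comparison, and on it 6 of the 7 genes read at least 2-fold above every other array. IFIH1 (219209_at) read 96.2, BST2 857, ISG15 1749, IFI6 613, IRF9 719 and IRF1 96.8. The corresponding values were 23.5 to 27.6, 21.7 to 23.8, 454 to 564, 52.6 to 60.8, 67.6 to 71.7 and 25.7 to 28.4 on the gedunin arrays. In the same order, DMSO 1 and 2 read 21.2 and 17.8, 16.4 and 18.1, 666 and 659, 75.8 and 68.8, 99.5 and 83.9, and 21.3 and 26.0. Values on the array labelled DMSO 3 were used in choosing the genes. The share of all genes at 2-fold is not given here, so nothing is read from the count of 6. At the 4-fold cut, 3 of the 7 genes exceeded every other array, against 3.27% of all genes.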

How the results depend on the processing

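With all 6 arrays, 252 probe sets were called higher and 60 lower, against 1638 and 1758 without the array labelled DMSO 3. The pathway genes called were then 0 and 0, the members' probe sets with gedunin above every DMSO array numbered 0, and IRF2 had -0.35. Centring on GAPDH and ACTB gave 1041 probe sets higher and 5226 lower, 30 pathway genes lower, and 1 member probe set with gedunin above DMSO. An adjusted p of 0.01 left 1021 and 848 probe sets and 4 pathway genes lower. Averaging the probe sets of each gene gave 14 pathway genes lower. In that setting limma was refitted and adjusted over genes, so the change cannot be credited to averaging alone. RIGI, read by 1 probe set, was called there at its unchanged -0.24. Leaving out 1 array gave 942 to 1536 probe sets higher and 811 to 1528 lower, with 3 to 6 pathway genes higher and 4 to 8 lower. Of 15 pathway genes called, 10 kept their call without each gedunin array in turn, 7 without DMSO 1 and 6 without DMSO 2, and 0 turned sign; MYD88, TIPARP, ISG20 and TRIM14 kept it in all 5. Among 267 values of named pathway genes under the alternatives, 211 kept the call or its absence (uncalled values that turned sign included), 52 lost and 3 gained the call, and 1 value of a called gene, IRF2 with all 6 arrays, turned sign. Of 115 member values, 92 moved by no more than 1 SD between arrays. With 3 spacer bases the response element core matched in 0 of the 7 promoters. The correlations of deviations between arrays of like number were -0.033 and 0.039. With only 2 DMSO arrays, whose deviations mirror each other, they cannot show whether the replicates were paired. With the replicate block 1480 probe sets were called higher and 1451 lower, with 7 and 7 pathway genes. Gedunin 3 has no partner in that block, so its differences equal those without gedunin 3, and both settings are among the 267 and 115 values. Intensities below the array median limit what IFIH1, BST2 and IRF1 can show. Of the named pathway genes, IFNAR1, RIGI, MX1, IFIT1 and TRIM5 did not pass the filter on dim probe sets, which limits them likewise.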
